A study of Mus musculus with 6 samples.

Results

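The comparison described here set macrophages that lack TIARP against wild-type macrophages after both had been kept with TNFα. It rests on 2 of the 6 single-colour arrays of the study, 1 for each genotype. They were chosen by their labels, which give the genotype as TIARP-/- or TIARP+/+, the strain as C57BL/6 and the treatment as TNFα for 24 h. The TIARP-deficient cells are called KO and the wild-type cells WT below. All macrophages came from the peritoneal cavity 3 days after thioglycollate, an irritant broth that draws leukocytes into that cavity, so both genotypes carried this treatment. The 4 other arrays served for reference. They were WT and KO macrophages without the TNF label, and WT and KO splenic neutrophils of the same strain, taken as Ly6G+ cells with magnetic beads. The macrophages came from 3 mice of each genotype and each array's label carries the numbers 1 to 3, but the sources used here do not say whether their cells or RNA were pooled. With 1 array a side there was no replicate check, so sizes are described and no test is given.

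TIARP, the product of Steap4, is a membrane metalloreductase of the STEAP family, which reduces iron and copper, and it was named for its induction by TNF in adipose tissue. TNF binds the receptors TNFR1 and TNFR2. Through the transcription factor NF-kB it switches on cytokines, chemokines and the inhibitors that end the response, and in macrophages it can also start the release of type I interferon. Thioglycollate-elicited cells are mostly recruited monocyte-derived macrophages, with variable numbers of other leukocytes and of cells from the peritoneal lining.

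Signals are given relative to the array's own 75th percentile, so that 1 is the level of that percentile, and differences are log2 of KO over WT on this scale. Relative signals of different probes are not comparable. Sums over a list are given only to set arrays side by side. Bright probes weigh most in them, so they do not measure the share of a cell type. A gene counted as higher or lower when this difference reached 1 in size, a 2-fold change, on a probe that the scanner software marked as well above background on the brighter array. If the dimmer array did not clear background, a bound had to reach 2-fold, and it is given as "at least". The 75th percentile itself lay at intensities of 432 (WT) and 338 (KO), 59.5% and 56.6% of probes were well above background, and no spot was saturated. Repeat spots of 1 probe within these arrays had a median SD of 0.0816 and 0.0862 on the log2 scale. Direction rests on the scaling. Scaling to the 8 spike-in probes lowered every difference by 0.78 (a shift of -0.78), so that increases under 1.78 no longer reached 2-fold. Scaling to the median shifted them by -0.23. Gene groups are therefore set beside the median of all genes tested, 0.05 as scaled here.

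Of 23907 genes tested with TNF, 1655 (6.92%) were higher and 638 (2.67%) lower in KO cells, 9.59% in either direction. Counts of list members with TNF below are to be read beside these shares. At least 4-fold differences were seen for 334 higher and 80 lower genes, and at least 8-fold differences for 91 and 30. For 384 of the higher and 143 of the lower genes the dimmer array gave only a bound. Long intergenic RNA loci made up part of this: of 3383 tested, 321 were higher and 42 lower. Among the 14535 tested genes with an approved symbol the counts were 735 and 506. The excess of higher genes was thus smaller among named genes.

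**Figure D1:**
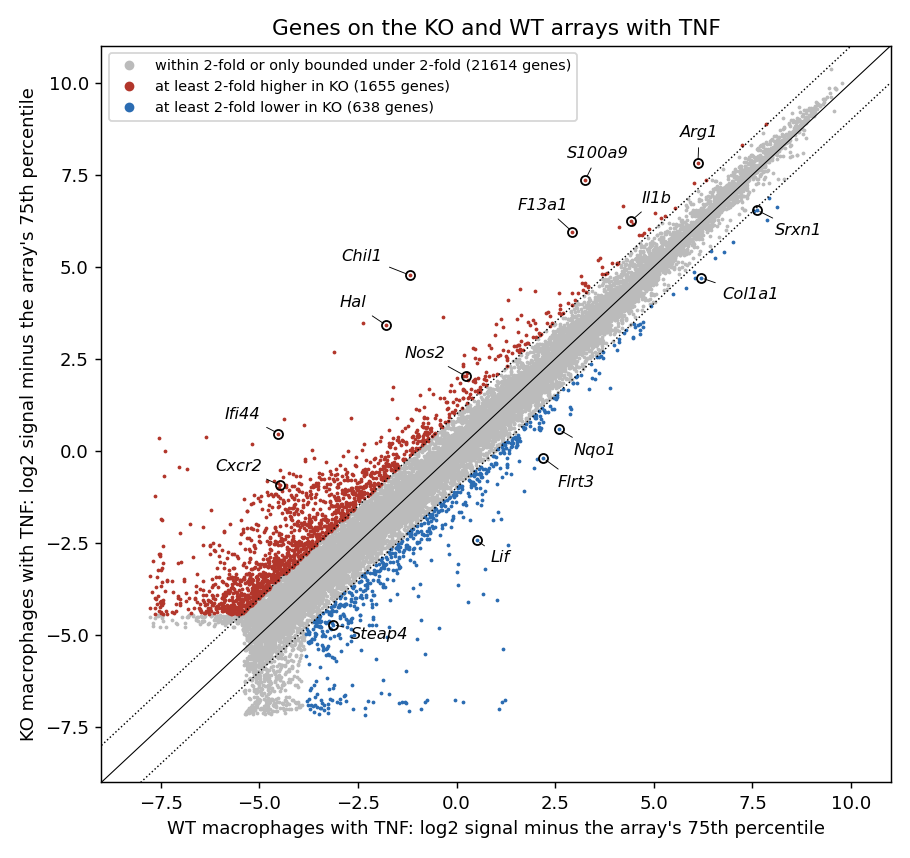
Log2 signal minus the array's 75th percentile on the WT (x axis) and KO (y axis) arrays with TNF, 1 point per gene well above background on either array, with the equal-signal line solid and the 2-fold lines dotted. Red points are the 1655 higher and blue points the 638 lower genes, and grey points are the other genes; circles mark 15 genes named in the text, drawn at their measured values, Chil1 and Hal far above and Nqo1, Flrt3 and Lif below the lines. With spike-in scaling all points would move 0.78 down (a shift of -0.78).

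The targeted gene was examined first. The relative signal of Steap4 was 0.114 on the WT array with TNF and 0.0379 on the KO array with TNF, where it was not well above background, against 0.357 and 0.203 without TNF and 0.211 and 0.161 in neutrophils. It was at least 3.00-fold lower in KO cells with TNF, and at -0.32 with normexp background correction, short of the rule. The measured difference was -1.59. Both genotypes were dimmer with TNF than without. Its single probe lies on chromosome 5, bases 7981239 to 7981298 (mm9). No source used here says which bases were removed, so the probe cannot check the labels. Of the other STEAP genes, Steap1 (relative signals 8.42 in WT, 4.81 in KO; -0.81) and Steap2 (-0.85) were below 0 and Steap3 (0.37) above it, none past the rule. In the list of 15 iron and STEAP genes, 14 were measured. Lcn2, an iron-trapping protein of neutrophil granules and activated macrophages, was higher (2.00 in WT, 10.9 in KO; 2.45). Tfrc, the transferrin receptor, was lower (5.87 and 2.87; -1.03), and did not reach 2-fold with quantile normalization (-0.98).

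The identity of the cells was checked next against marker lists. Of 14 general macrophage markers all were measured and 2 were higher, with a median of 0.56 that fell as low as -0.22 over the processing alternatives. Cd68 (relative signals 358 in WT, 386 in KO), the CSF-1 receptor gene Csf1r (343 and 364) and Adgre1, which encodes F4/80 (76.1 and 104), were bright on both arrays and within 2-fold. These general markers of the labelled cell type were thus present on both arrays. Of 12 markers of resident peritoneal macrophages 2 were lower and none higher, with a median of -0.41 (-1.19 to 0.01 over the alternatives). The lower ones were Gata6 (1.44 in WT, 0.585 in KO; -1.30) and Vsig4 (2.26 and 1.02; -1.14). A second, dimmer Cd68 probe gave 43.4 and 19.1 (-1.18), so the probes of this gene differed in direction. Marco, a scavenger receptor for bacteria, was higher (152 and 320; 1.07), and fell short of 2-fold with median scaling (0.84), with spike-in scaling (0.30) and with the intensity trend removed (0.95). The summed relative signal of the 14 genes, in which bright probes such as that of Marco weigh most, was 1354 in WT and 1719 in KO cells with TNF.

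Markers of other cells differed between these arrays, and in bulk RNA fewer cells of a type and less RNA per cell cannot be told apart. Of 11 measured B-cell markers, 9 were higher in KO cells, with a median of 1.38. Fcmr, the IgM Fc receptor, went from 0.494 in WT to 2.18 in KO (2.14). The summed relative signal of the 12 B-cell genes was 6.69 in WT and 19.7 in KO cells with TNF, 9.30 and 26.3 without TNF, and 816.1 and 816.2 on the neutrophil arrays. The WT and KO neutrophil arrays thus carried these genes too. Of 8 T-cell markers 4 were higher (median 1.08), led by Cd247, the CD3 zeta chain (0.0829 and 0.372; 2.16). Over the planned processing alternatives the higher T-cell genes numbered 1 to 4 (2 with quantile normalization) and the higher B-cell genes 5 to 10 (7 with quantile normalization). Mast cell and basophil genes gave 4 higher of 7 measured (median 1.08), led by the tryptase gene Tpsb2 (1.12 and 3.19; 1.5), and 0 with spike-in scaling. Of 7 natural killer markers 4 were higher and 1 lower, and these 5 were dim, at relative signals of at most 0.32 on both arrays.

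Neutrophil genes were split with TNF. Of 12 mature neutrophil markers, 5 were higher and 5 had values below 0, with a median of 0.19 that turned to -0.04 with median scaling and -0.59 with spike-in scaling. S100a8, a subunit of the calcium-binding dimer calprotectin, went from 64.6 to 156 (1.28), against 4.10 for its partner S100a9. Ly6g, the antigen used to collect neutrophils, went from 0.0633 to 0.228 (1.85; 0.92 with normexp correction). The decoy receptor gene Il1r2 was at 1.48. The collagenase Mmp8 (19.6 and 11.7; -0.74), the gelatinase Mmp9 (19.1 and 12.8; -0.58) and Padi4, which citrullinates histones (-0.82), were lower in value and not past the rule. Without TNF, the KO-minus-WT values of Mmp8 and Mmp9 were 0.20 and 1.13. The summed relative signal of the 12 genes was 251 in WT and 505.6 in KO cells with TNF, 183.7 and 460 without it, and 2243 on the WT neutrophil array. Without S100a8 and S100a9 the other 10 genes summed to 176.8 in WT and 184.5 in KO cells with TNF. Among 10 measured granule precursor genes 4 were higher, Ltf (lactoferrin, 1.98), Lcn2, the chitinase-like Chil3 (2.44) and Prtn3 (1.09), while the elastase gene Elane was at -0.79.

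Cells of the peritoneal lining gave the opposite picture. Of 10 mesothelial and fibroblast markers 4 were lower in KO cells and none higher, with a median of -1.09 (-0.32 with normexp correction). Pdgfra, a growth factor receptor of fibroblasts, went from 4.37 in WT to 1.49 in KO (-1.55), and the mesothelial gene Lrrn4 was at least 2.89-fold lower (-1.53; -0.24 with normexp correction). Wt1, a transcription factor of mesothelium, was at -0.83. The markers Msln (-0.14), Krt19 (-0.08) and Pdpn (0.18) lay near 0. The summed relative signal of the list was 356.9 in WT and 239.2 in KO cells with TNF. Every one of the 10 was well above background on the WT array and 8 on the KO array. The part of these other cells in the results that follow was not tested. Of the 1655 higher genes, 1181 were brighter by 2-fold or more in WT neutrophils than in untreated WT macrophages and 109 were dimmer, where 25.9% and 17.6% of all genes were (43.5% in either direction). Of the 638 lower genes the counts were 58 and 362.

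**Figure D2:**
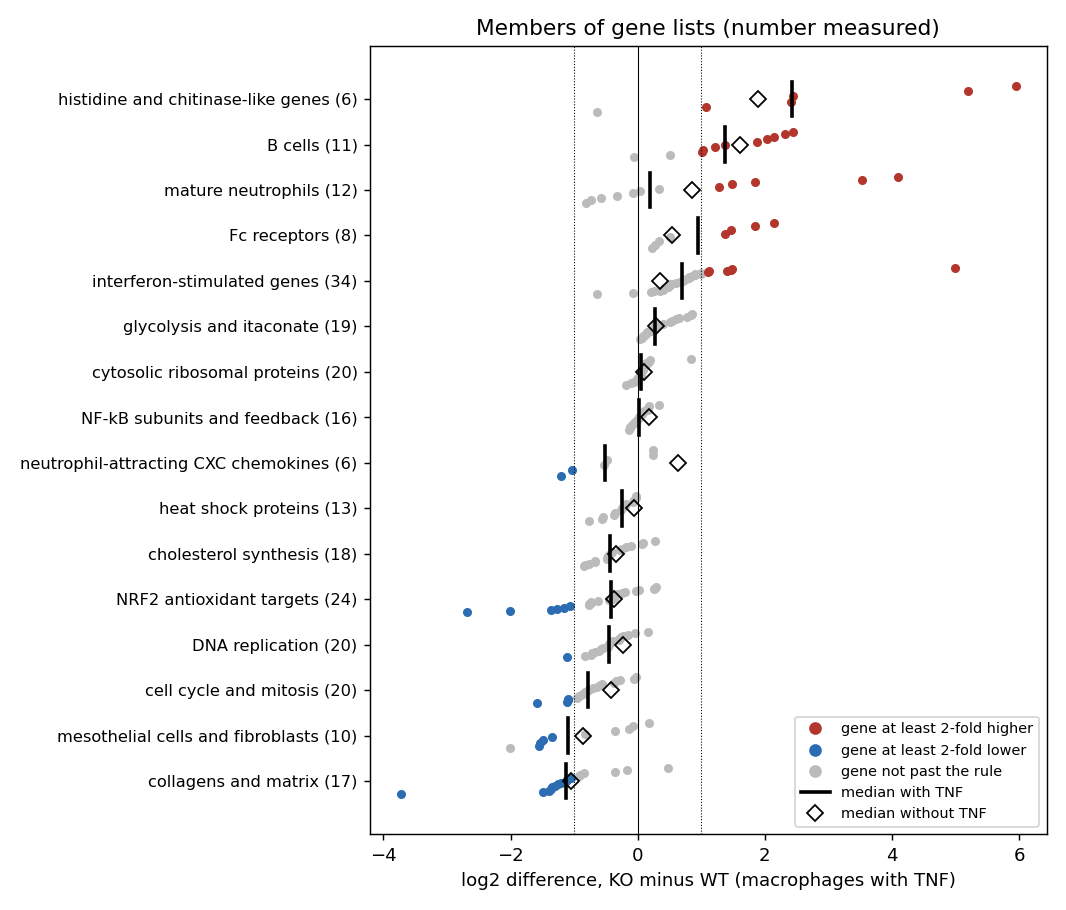
Log2 difference, KO minus WT, in macrophages with TNF for every measured member of 16 gene lists (1 point a gene, red at least 2-fold higher, blue at least 2-fold lower, grey neither), with black bars at the median with TNF and open diamonds at the median without TNF. B-cell and histidine and chitinase-like genes lie to the right (medians 1.38 and 2.42) and collagens to the left (-1.14); spike-in scaling moves every point with TNF by -0.78, which takes the medians of the interferon-stimulated, mature neutrophil and glycolysis lists below 0.

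The core of the TNF response was then compared. Neither the 19 genes for TNF family members, receptors and adaptors (median 0.12) nor the 16 NF-kB subunit and feedback genes (median 0.02) had a member past the rule. Tnfrsf1a, which encodes TNFR1, had a relative signal of 35.6 in WT and 35.5 in KO cells (-0.01). Tnfrsf1b, which encodes TNFR2, was at 31.5 and 16.6 (-0.92), the lowest value of its list, and was past 2-fold with median (-1.16) and spike-in (-1.70) scaling. Tnfrsf9, which encodes the costimulatory receptor 4-1BB, was at 38.9 and 61.7 (0.67), but a dimmer probe of it gave 0.15 and 0.998 (2.73). The NF-kB inhibitor gene Nfkbia was at 148 and 186 (0.33) and Nfkb1 at 2.07 and 1.94 (-0.09), the whole NF-kB list lying between -0.14 and 0.33. Of 18 measured Toll-like receptor and adaptor genes none was past the rule either (median 0.08).

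Cytokine lists were compared next. Lif, a cytokine of the IL-6 family, showed the only decrease past the rule in its list: relative signals were 0.152 and 0.138 on the WT and KO arrays without TNF, and 1.42 and 0.186 with it. The WT array with TNF was thus the bright one among the 4 macrophage arrays, and the KO array with TNF stayed near both arrays without it (-2.93 with TNF, -0.14 without). The other 15 genes of the IL-6 family and STAT3 feedback list were not past the rule. They included Il6 itself (2.08 and 1.97; -0.08), its receptor Il6ra (0.51) and Socs3, an inhibitor of STAT3 signalling (22.8 and 43.7; 0.94).

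Il1f9, the gene of IL-36 gamma, changed sides. Its relative signals were 0.059 and 0.18 without TNF and 1.89 and 0.749 with TNF, so the KO array was the brighter without TNF (1.61) and the dimmer with it (-1.34). In the list of 20 IL-1 family and inflammasome genes, 5 were higher and 1 lower. Besides Il1r2, Il1b went from 21.4 to 75.9 (1.82), Il18 from 1.67 to 4.46 (1.41), the alarmin gene Il33 from 0.334 to 0.748 (1.16) and Mefv, the pyrin gene, from 6.49 to 13.4 (1.05). Nlrp3 (-0.21), Casp1 (0.05) and Il1a (0.20) lay near 0.

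Of 6 measured genes in the list of neutrophil-attracting CXC chemokines, 2 were lower, with a median of -0.51 against 0.63 without TNF. The list also held Pf4, which is among the platelet markers used here. Cxcl3 had relative signals of 1.80 and 2.26 without TNF, and 186 and 91.1 with it (-1.03), so it was far brighter with TNF in both genotypes. Cxcl5 was at 25 and 10.9 (-1.20). Cxcl2, at 13.6 and 9.66 (-0.49), and Ppbp (-0.53) were not past the rule, and without TNF both had been above 0 (1.17 and 0.78). Cxcl1 was at 7.80 and 9.18 (0.24). Of 12 measured CC chemokines 1 was higher, where 6.92% of all genes were. It was Ccl17, a ligand of CCR4 (1.09 and 2.23; 1.03). Ccl17 did not reach 2-fold with normexp correction (0.92) or with median (0.80) or spike-in (0.25) scaling. Tnf, at 7.76 and 5.49 (-0.50), reached -1.28 with spike-in scaling, and Cxcl2 -1.27. Of 21 chemoattractant receptor genes 7 were higher. Cxcr2, a receptor for several of the CXC chemokines above, was at 0.0453 and 0.522 (3.53), with 5.7 on the WT neutrophil array. Cxcr1 was at 0.0183 and 0.106, the first not well above background. They also included Ackr3, a scavenging receptor for CXCL12 (0.139 and 0.578; 2.05), and C3ar1, the receptor for complement C3a (1.21 and 2.48; 1.04, and 0.95 with normexp correction).

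Of 34 measured genes induced by type I interferon, 6 were higher (6.92% of all genes were) and none lower, and 32 had values above 0. The median was 0.70, against 0.34 without TNF, where 1 gene was higher (background 4.08%, and 5.63% in either direction). Relative to all genes, the median with TNF lay between 0.52 and 0.70 over the processing alternatives, of which scalings that shift all genes alike cannot change it. The median itself was -0.08 with spike-in scaling, where 1 gene was higher and 1 lower. Irf7, the transcription factor that amplifies interferon production, had relative signals of 6.72 and 9.41 without TNF, and 3.98 and 11 with it (1.47). Ifit3, which takes part in binding viral RNA, had signals of 1.45 and 2.33 without TNF, then 0.945 and 2.49 with it (1.40). For both, the WT array with TNF was the dimmest of the macrophage arrays, and the KO array with TNF the brightest as scaled. Before scaling, the KO array without TNF was brighter than the KO array with it (Irf7 3854 and 3721, Ifit3 954 and 842). A rise with TNF in KO cells is therefore not shown. Mx1, an antiviral GTPase, was at 0.411 and 1.15 with TNF and at 1.51 and 2.38 without, so both arrays with TNF were dimmer than their counterparts. Rsad2 (viperin, 2.98 and 6.46; 1.12) and Usp18, which removes ISG15 from proteins (3.06 and 6.62; 1.11), completed the higher genes with Ifi44. Just short of 2-fold were Isg15 (0.99) and Mx2 (0.99), while Xaf1, an apoptosis factor (-0.64), and the RNA sensor gene Ifih1 (-0.07) were below 0. A second Xaf1 probe, on chromosome 11 at bases 72127175 to 72127234 (mm9), went from 0.0358 to 15.4 (8.75), so the probes of this gene were opposed.

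Ifnb1 and Ifna4 were not well above background on either array with TNF, and none of the 10 measured genes for interferons and their sensors was past the rule (median 0.07), with Ifnar1 at 0.58 and Ifnar2 at 0.50. Among 19 genes typical of interferon gamma, Gbp6 (1.21 and 2.69; 1.15) and Gbp4 (0.285 and 0.582; 1.03) were higher, both guanylate-binding proteins that attack vacuoles of pathogens, and the median was 0.46. With spike-in scaling (0.37 and 0.25) and median scaling (0.91 and 0.79) neither reached 2-fold, and Gbp4 also fell short with quantile normalization (0.90), with the trend removed (0.97) and with normexp correction (0.82).

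To show what lies upstream of these genes, RefSeq promoter sequences (GRCm38.p6, 250 bases before the start) were searched on both strands for GAAA followed after 2 bases of any kind by another GAAA, the core of the interferon-stimulated response element bound by IRF proteins and the complexes they form. It was found in 978 of 32851 promoters (2.98%). Of the interferon-stimulated genes, 24 of those measured were matched to a promoter and 9 held it, against 936 of 27025 genes in all (3.46%). Among the 6 higher genes 4 were matched and 2 held it, Ifit3 and Rsad2, as did 7 of the 20 matched genes not past the rule. The stretches are printed in the direction of the gene, with the motif in capitals, read here from the opposite strand. Ifit3 holds it at a pair of places (chr19:34583348-34583441, plus strand, 181 to 88 bases before the start) and Rsad2 at 1 (chr12:26456538-26456597, minus strand, 145 to 86 bases before the start).
Ifit3: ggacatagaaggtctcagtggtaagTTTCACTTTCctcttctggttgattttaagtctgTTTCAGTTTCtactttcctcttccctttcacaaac
Rsad2: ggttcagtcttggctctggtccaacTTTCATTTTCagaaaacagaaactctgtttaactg
A match describes the letters only and does not show that a factor was bound.

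NRF2, a transcription factor held down by KEAP1 and released by oxidants, drives genes of glutathione synthesis, quinone reduction and NADPH supply. Of 24 measured NRF2 targets, 6 were lower (2.67% of all genes were) and none higher, and 20 had values below 0. The median was -0.42, against -0.38 without TNF, where 2 were lower (background 1.55%). Relative to all genes the median lay between -0.61 and -0.39 over the alternatives, of which scalings that shift all genes alike cannot change it. Nqo1, a quinone reductase, had relative signals of 2.24 and 1.26 without TNF, and 6.03 and 1.5 with it (-2.01). It was brightest on the WT array with TNF, and the KO array with TNF lay below the WT array without it. Gclm, the modifier subunit of glutamate-cysteine ligase, had signals of 7.12 and 3.94 without TNF, then 17.3 and 7.73 with it (-1.16). Me1, an NADPH-producing enzyme, was at 5.37 and 2.22 (-1.27), and its 3 probes gave -1.27, -1.29 and -1.33. Srxn1 (195 and 93.3; -1.06) and the glutathione transferases Gsta3 (25.1 and 9.77; -1.36) and Gsta4 were the other lower genes. Gsta4 was at least 6.43-fold lower (-2.68), with -0.83 and no call under normexp correction.

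The rest of the list was graded. Txnrd1, thioredoxin reductase (156 and 94.1; -0.73), Slc7a11, the cystine importer (-0.73), Gclc (-0.62) and Pgd (-0.77) lay between these and 0. Hmox1, the haem-degrading enzyme, was at 246 and 242 (-0.02), and the ferritin genes Fth1 (0.25) and Ftl1 (0.27) were above 0. Gss, glutathione synthetase, which was outside this list, was lower too (5.54 and 2.21; -1.33), with -0.26 without TNF. The 7 genes for NRF2 and its regulators held none past the rule (median -0.13), with Sqstm1 at -0.68 (a dimmer probe at 1.43), Nfe2l2, the gene of NRF2, at 45.0 and 38.2 (-0.24) and Keap1 at 7.88 and 8.54 (0.12). The mesothelial and fibroblast markers, lower on the same KO array (summed 356.9 and 239.2), move with this group, and their part in it was not tested.

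The same promoter search used TGACNNNGC, the core of the antioxidant response element. It occurred in 3338 of 32851 promoters (10.2%) and 3112 of 27025 genes (11.5%), in 5 of the 19 matched NRF2 targets, in 2 of the 5 matched lower genes and in 3 of the 14 matched others. Matches of the 2 motifs were counted without regard to each other. The 2 lower genes with a match are printed because they differ in how it reads. In Gclm (chr3:122245398-122245456, plus strand, 159 to 101 bases before the start) it runs on the opposite strand, and in Gsta3 (chr1:21240439-21240497, plus strand, 146 to 88 bases before the start) on the strand of the gene.
Gclm: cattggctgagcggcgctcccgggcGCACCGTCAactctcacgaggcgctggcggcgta
Gsta3: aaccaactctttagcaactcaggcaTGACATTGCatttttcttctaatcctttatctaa
In the 3 other lower genes with a promoter no match was seen, which says only that these letters were not in the stretch searched.

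**Figure D3:**
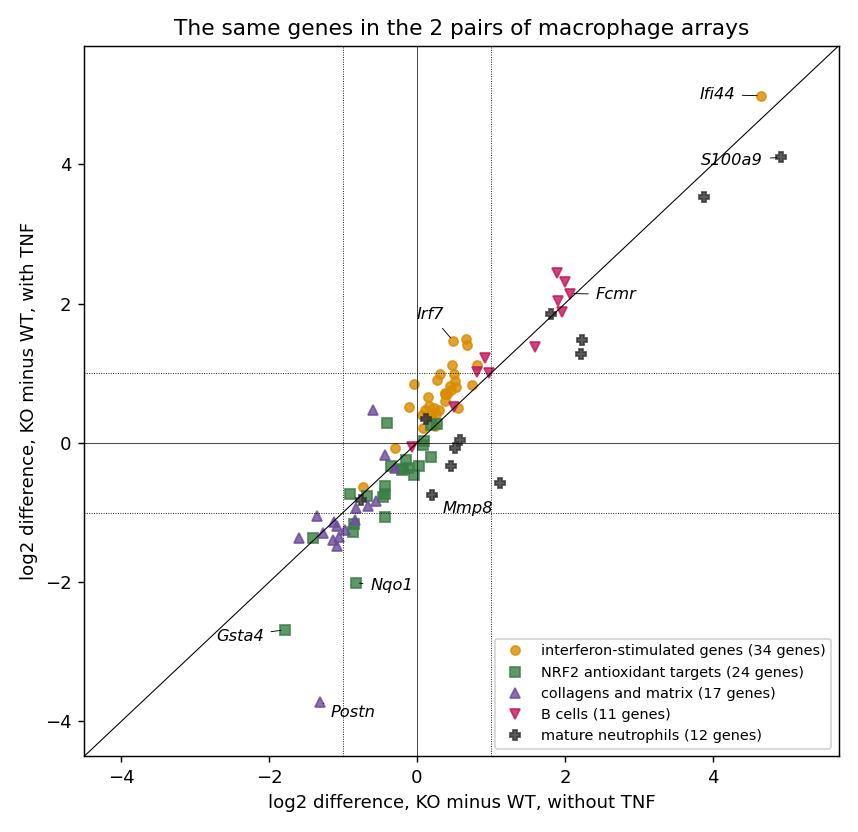
Log2 difference, KO minus WT, without TNF (x axis) and with TNF (y axis) for members of 5 lists, 1 point a gene; the diagonal marks equal differences in both pairs of arrays, and dotted lines mark 2-fold. Most interferon-stimulated genes lie above the diagonal (Irf7 0.49 without and 1.47 with TNF), Nqo1 below it (-0.83 and -2.01), and B-cell genes near it (Fcmr 2.07 and 2.14); spike-in scaling would lower all points on the y axis by 0.78 (a shift of -0.78), and its effect on the x axis was not computed.

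Enzymes that compete for arginine were both brighter in KO cells. Of 10 genes of arginine and nitric oxide metabolism 3 were higher. Nos2, which makes nitric oxide, had relative signals of 0.907 and 1.26 without TNF, and 1.18 and 4.08 with it (1.79), so the KO array with TNF stood apart from the other macrophage arrays. Arg1, the cytosolic arginase, differed between the arrays without and with TNF, from 204 to 69.6 in WT and from 328 to 227 in KO (1.71 between the genotypes with TNF). It was thus dimmer with TNF in both genotypes and by more in WT. Arg2, the mitochondrial arginase, was at 0.957 and 3.09 (1.69). Ass1, which rebuilds arginine from citrulline, was at -0.73 and Odc1 at -0.38, neither past the rule. With spike-in scaling Arg1 (0.93) and Arg2 (0.91) did not reach 2-fold.

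The histidine and chitinase-like genes had the highest median of the 57 lists. The lists were chosen with earlier results of these data known, so this rank is a description only. Of 6 measured, 5 were higher, with a median of 2.42. Chil1, a secreted chitinase-like protein, had relative signals of 0.501 and 2.83 without TNF, 0.442 and 27.3 with it, and 4.49 and 13.8 in neutrophils. As scaled, the WT level was thus alike with and without TNF (245 and 191 before scaling), and the KO array with TNF was the brightest of all 6. Hal, which starts the breakdown of histidine, went from 2.2 to 0.291 between the WT arrays without and with TNF, and from 7.01 to 10.6 between the KO arrays. Its probe on chromosome 10 at bases 92979135 to 92979194 gave 5.19 and a dimmer probe at 92981534 to 92981593 gave 2.22 (mm9), so they agreed in direction and not in size. Chil3 was at 18.6 and 101 (2.44) and Chil4 at 0.119 and 0.63 (2.41). Chil3 and Chil4 are closely related in sequence, and a probe of one may also detect the other. Hdc, which makes histamine and marks mast cells and basophils, was at 1.08, and Hnmt, which inactivates histamine, at -0.65. Hdc was under 2-fold with quantile normalization (0.95), median scaling (0.84), spike-in scaling (0.30) and normexp correction (0.81).

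Receptors for antibody followed the same direction. All 8 Fc receptor genes had values above 0 and 4 were higher, with a median of 0.94 (0.16 with spike-in scaling). Fcgr1, the high-affinity IgG receptor CD64, had relative signals of 11.5 and 16.2 without TNF, and 0.665 and 2.94 with it (2.14). Fcgr4, which binds IgG2 subclasses, had signals of 11.3 and 18.9 without TNF, then 0.703 and 1.95 with it (1.47). Both were far dimmer on the arrays with TNF, and the KO array kept more of the signal. Fcrla (1.84), a gene of B cells, and Fcer1a (1.37), the IgE receptor of mast cells and basophils, were the other higher genes. Siglec1, a sialic acid receptor of macrophages also induced by interferon, was at 1.12 and 4.93 (2.14), and its second probe gave 1.29.

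The integrated stress response list held 3 higher genes of 17. Chac1, which degrades glutathione, was at 1.21 and 4.34 (1.85), Trib3, a pseudokinase, at 2.92 and 7.32 (1.32), and Ddit4, an inhibitor of mTORC1, at 15.3 and 34.6 (1.18). Their values without TNF were 0.24, 0.21 and 0.55. The regulators Atf4 (0.33) and Ddit3 (0.50), the asparagine synthetase gene Asns (0.32) and the serine pathway genes Phgdh (-0.43) and Psat1 (-0.28) were not past the rule, and the list's median was 0.31. With spike-in scaling neither Trib3 (0.55) nor Ddit4 (0.40) reached 2-fold, nor did Ddit4 with median scaling (0.95).

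Of 20 measured cell cycle and mitosis genes 4 were lower, all 20 had values below 0, and the median was -0.78, against -0.42 with none past the rule without TNF. Relative to all genes the median lay between -0.95 and -0.76 over the alternatives, of which scalings that shift all genes alike cannot change it. Bub1b, a checkpoint kinase of mitosis, had relative signals of 0.922 and 0.609 without TNF, and 2.15 and 0.718 with it (-1.58). Plk1 was at 8.85 and 4.16 (-1.09), Top2a at 1.40 and 0.647 (-1.12) and the kinesin gene Kif11 at 0.187 and 0.087 (-1.10). Cdk1 (-0.95) and Cdc20 (-0.92) lay just inside the limit, and Mki67 (9.19 and 8.86; -0.05) and E2f1 (-0.02) were near 0. With normexp correction Top2a (-0.93) and Kif11 (-0.37) did not reach 2-fold. Of 20 DNA replication genes 1 was lower, the origin licensing gene Cdc6 (0.438 and 0.203; -1.11, and -0.66 with normexp correction), and 19 had values below 0 (median -0.45).

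Of 17 collagen and matrix genes 11 were lower and none higher, with a median of -1.14, close to the -1.06 without TNF. Relative to all genes the median with TNF lay between -1.31 and -1.04 over the alternatives, of which scalings that shift all genes alike cannot change it. Col1a1, a chain of the main fibrillar collagen, had relative signals of 76.3 and 35.9 without TNF, and 72.9 and 26.1 with it (-1.48), and 0.222 and 0.343 on the neutrophil arrays. Col6a3 (1.39 and 0.541; -1.36) and Lum, the collagen-binding lumican (0.327 and 0.124; -1.40), were lower as well. Postn, periostin, was at least 4.58-fold lower, and less than 2-fold lower with normexp correction (-0.61), as was Lum (-0.68). Fn1, which macrophages themselves make, was at 293 and 259 (-0.17), and Lox was at 0.47. The collagens moved with the fibroblast and mesothelial markers above, with which they share Col1a1, Col1a2 and Dcn, and the part of such cells was not tested.

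Metabolic lists were flatter. None of 18 cholesterol synthesis genes was past the rule, but 15 had values below 0 and the median was -0.43. All 19 glycolysis and itaconate genes had values above 0 (median 0.27, but -0.51 with spike-in scaling) and none passed the rule, with Pfkfb3, a driver of glycolytic flux, at 12.2 and 22.2 (0.86). None of 13 heat shock genes passed, and all 13 were below 0 (median -0.25). Ribosomal protein (0.05) and oxidative phosphorylation genes (0.05) had the median of all genes.

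**Figure D4:**
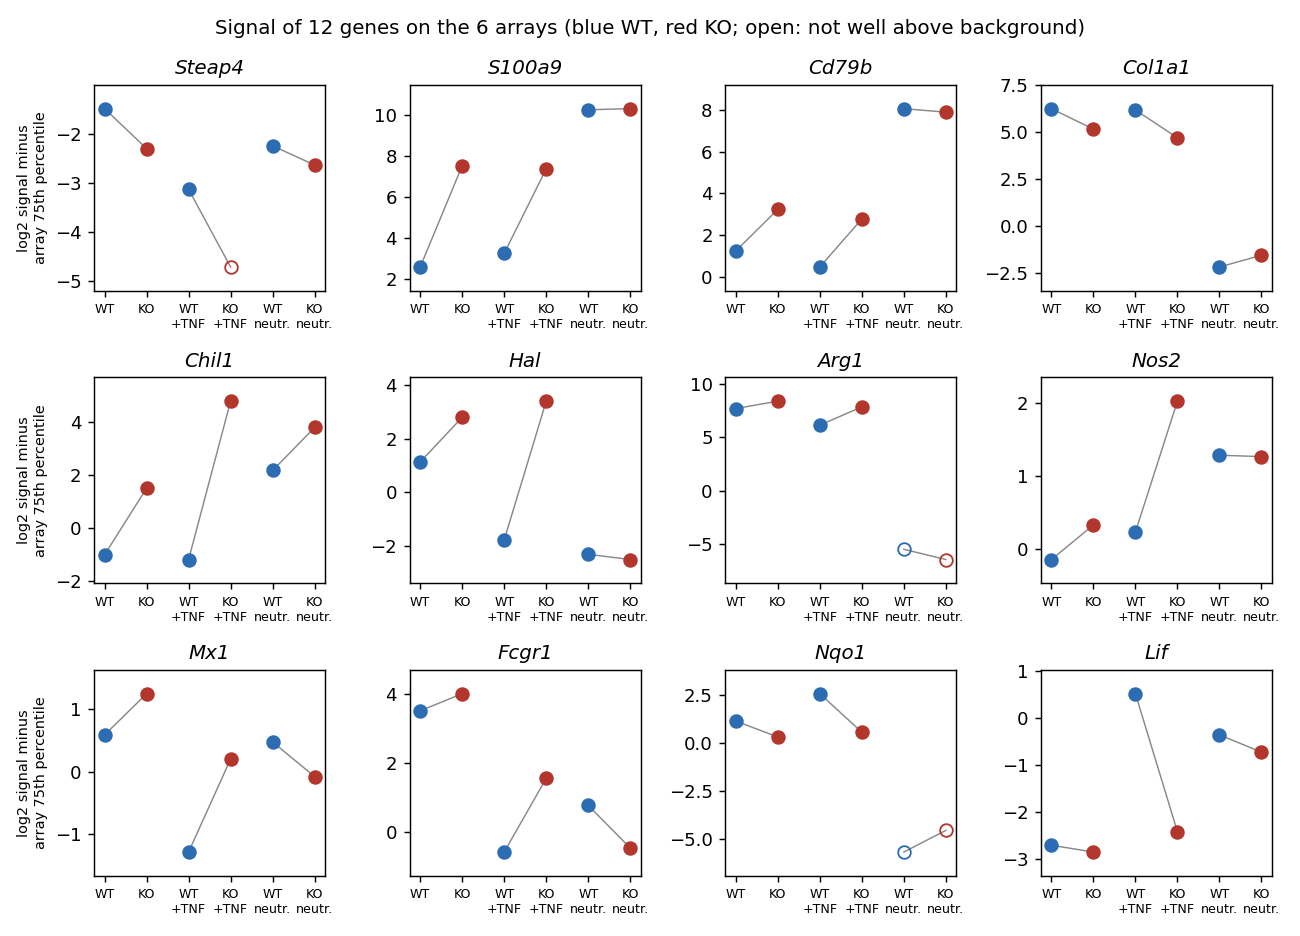
Log2 signal minus the array's 75th percentile of 12 genes on the 6 arrays (blue WT, red KO; lines join the genotypes of a condition; open symbols were not well above background), each array being 1 sample. With TNF, Chil1, Hal, Nos2 and Fcgr1 were brighter and Nqo1 and Lif dimmer on the KO array than on the WT array; Lif was alike on both arrays without TNF. With spike-in scaling the difference of Mx1 (0.71) no longer reaches 2-fold.

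With no repeat arrays, probes of the same gene were compared. Of 4537 genes with at least 2 probes, all well above background on both arrays with TNF, 61 had every probe at least 2-fold higher and 37 every probe at least 2-fold lower. Without TNF, on arrays not used to choose them, 60 of the 61 and 37 of the 37 had the same sign, and 29 and 14 were past 2-fold. Of all higher and lower genes measured in both pairs, 1461 of 1563 and 555 of 588 had the same sign, so this was common to the called genes at large. Whether the arrays with and without TNF come from the same mice is not stated. The 38 higher genes with approved symbols were ranked by the probe with the smallest difference. Ifitm1, an interferon-induced membrane protein, came first, with relative signals of 0.323 and 2.65 and both probes above 3.03 (3.04 and 3.07). Its probes start 1 base apart, at 148155658 and 148155659 on chromosome 7 (mm9), so they are not separate views of it. F13a1, a clotting factor subunit made by monocytes and macrophages, was at 7.62 and 62.1 (3.03 and 3.24). Its relative signals without TNF were 23.1 and 61.6, so as scaled the KO level was alike with and without TNF and the WT level differed. Before scaling, signals without and with TNF were 25215 and 20980 on the KO arrays, and 11327 and 3293 on the WT arrays. Kcne3, a potassium channel subunit (2.89), Hcar2, a receptor for niacin and hydroxybutyrate (1.96 and 8.81; 2.17), Ifi206, a DNA-binding interferon-inducible gene (2.21), and Plac8 (2.05) followed. Bnip3, a mitophagy receptor induced by hypoxia, was at 17.3 and 67.3, and its 3 probes gave 1.75, 1.96 and 1.99.

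Of the 37 lower genes 32 had approved symbols, and among these Flrt3, an adhesion protein, came first. It had relative signals of 0.792 and 0.451 without TNF, and 4.58 and 0.876 with it, and its 3 probes gave -1.96, -2.05 and -2.39. Cxcl12, a chemokine of stromal cells, was at 2.98 and 0.822 (-1.70 and -1.86). Slc6a9, a glycine transporter, had signals of 1.54 and 0.848 without TNF, then 11.3 and 3.91 with it (-1.53), so it was brighter with TNF in both genotypes. Trim16 (-1.66), the protease gene Adamts4 (-1.51), Ccn4 (-1.45), Serpinf1 (-1.53), Ccdc80 (-1.33) and Wnt4 (-1.54) included several genes known from fibroblasts and mesothelium. On the WT neutrophil array, which also carried B-cell genes, 31 of the 37 were dimmer by 2-fold or more than on the untreated WT macrophage array. On the same array 2 of them were brighter, whereas of the 61 higher genes 14 were dimmer there and 37 brighter.

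**Figure D5:**
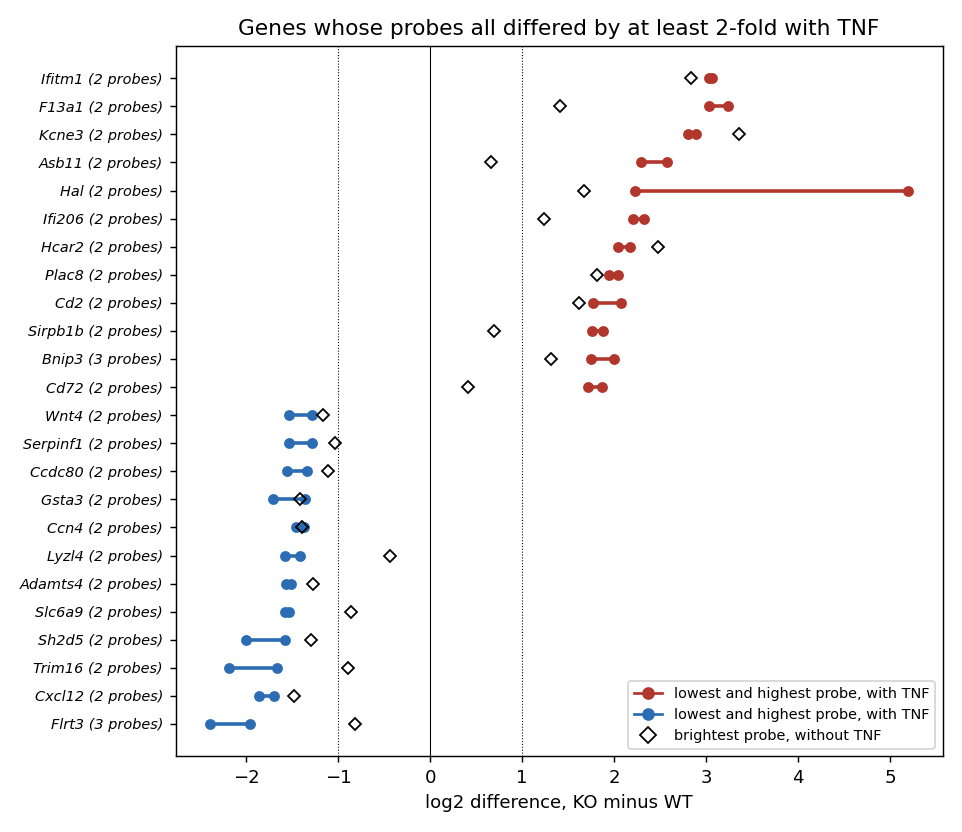
Log2 difference, KO minus WT, for the 24 genes named because all their probes differed by at least 2-fold with TNF: filled points joined by a line are the lowest and highest probe with TNF (red higher, blue lower), and open diamonds the gene's brightest probe without TNF. Every diamond lies on the same side of 0 as its line, and Hal has the widest spread between probes (2.22 to 5.19). Spike-in scaling would shift all filled points by -0.78, which cannot carry a point past 2-fold across 0.

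A last group held genes past the rule with TNF whose difference without TNF was under 0.5 in size. Of the 1563 higher genes measured in both pairs, 364 differed by less than 0.5 without TNF, and of 588 lower genes 90. Restricted to brighter genes with approved symbols, 41 were higher and 19 lower. Besides Fcgr1, Siglec1, Chac1, Nos2 and Irf7, the higher genes with the largest differences were Cd72, a B-cell inhibitory receptor (0.568 and 1.87; 1.72), Clec4a2, an inhibitory lectin of myeloid cells (0.556 and 1.68; 1.60), Gpat3, an enzyme of triglyceride synthesis (0.839 and 2.5; 1.57), Gstt1 and Syn3. The last 2 rest on 1 probe each. A second Gstt1 probe gave 0.27 beside 1.74, and other Syn3 probes ran from -0.69 to 0.73. Without TNF these higher genes were above 0 too, several just under the limit. The values were Fcgr1 0.4975, Irf7 0.485, Nos2 0.473, Siglec1 0.459, Gpat3 0.456, Gstt1 0.423, Cd72 0.410, Syn3 0.375, Chac1 0.242 and Clec4a2 0.160. The share of all genes under 0.5 without TNF was not computed.

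On the lower side, Artn, a neurotrophic factor of the GDNF family, had relative signals of 0.0359 and 0.0368 without TNF, and 2.43 and 0.78 with it (-1.64). It was at a similar low level on both arrays without TNF and brighter in both genotypes with it, less so in KO. Phlda1 (5.04 and 3.97 without, 22.2 and 8.41 with TNF; -1.40), Tarm1, an activating receptor of myeloid cells (0.116 and 0.111, then 1.99 and 0.893; -1.15), and Acss2, which makes acetyl-CoA from acetate (1.49 and 1.41, then 5.16 and 2.31; -1.16), showed the same order. Akr1b8, an aldo-keto reductase, had signals of 65.5 and 48 without TNF, then 129 and 51.5 with it (-1.33). St3gal5, which makes the ganglioside GM3, was dimmer with TNF in both genotypes (32.1 and 30.5, then 10.9 and 3.94; -1.46). Nrp1 was at 2.59 and 1.07 (-1.28). Metap1d was at -1.37, and at -0.96 as the median over its probes, as was Acss2 at -0.99.

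Some genes differed in all 3 genotype pairs, which share no array: 54 with approved symbols were higher in each and 23 lower. Between the neutrophil arrays 3.66% of genes were higher and 4.74% lower, 8.39% in either direction. Atp6v0e2, a subunit of the proton pump, had relative signals of 0.149 and 4.95 without TNF, 0.116 and 6.46 with it, and 0.0209 and 0.661 in neutrophils. Zfp979 was at 5.45, 5.84 and 7.16 in the same order of pairs. Ctse, an aspartic protease, was at 4.32, 3.55 and 2.62. On the lower side, Spint1, a protease inhibitor, was at 0.751 and 0.132, then 1.23 and 0.0579, then 0.131 and 0.0292, and was 21.2-fold lower with TNF (-4.41). Mrpl35, a mitochondrial ribosomal protein, was at least 14.2-fold lower with TNF, with measured differences of -3.81, -4.09 and -3.81. Rab6b (-3.93) and Rbbp9 (-2.97) were also lower in each pair. Whether the arrays of a genotype come from the same mice is not stated. Of these 77 genes 13 (16.9%) lie on chromosome 2, which holds 7.92% of the tested genes with approved symbols, and 0 on chromosome 5, which holds Steap4 and 6.16% of the tested genes.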

How the data were processed

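Total RNA of each sample was labelled with Cy3 and hybridised to 1 array. Per the file headers and the submitters' processing notes, Agilent Feature Extraction 10.7.3.1 produced the deposited spot intensity, on a linear scale, background-subtracted and detrended within the array. No scaling between arrays had been applied to the deposited intensity. The 6 arrays shared a slide and a scan, per the file headers, so no batch could be separated.

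Control spots and 101 to 121 outlier spots per array were left out. Spots of a probe were averaged over 55680 probes, turned to log2, and the array's 75th percentile was subtracted. Names came through RefSeq (GRCm38.p6) accessions for 27234 probes, symbols for 3581 and unique synonyms for 565. The probe names in the files were kept for 8119, and 16181 were lincRNA probes. Each gene was represented by the probe of highest mean log2 signal across arrays (34740 genes, 11199 with more than 1 probe). Intensity data give no read depth, and 1 array a group limits the precision.

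Named genes were Steap4, Tnf, Il6, Il1b, Cxcl1, Cxcl2, Cxcr1 and Cxcr2; the 12 largest differences each way among genes whose probes all passed 2-fold, by the smallest probe difference; the 10 largest each way among brighter genes past the rule with a difference under 0.5 without TNF; and up to 4 members each way of each list past the rule. Other members are given as values, and genes differing in all 3 pairs and further list members past the rule were chosen after their values were seen. Both rankings of largest differences took approved symbols only. Members and lists (42 pathway and 15 marker lists, 767 of 775 symbols on the array) were chosen with earlier results of these data known. The size rule was run on simulated arrays with planted changes well past the limit, in brighter genes, and noise the size of that between repeat spots. The outcome was fixed by these choices, so it checks the computation only. It says nothing about spread between mice or arrays. Alternatives were quantile, median and spike-in scaling, a 75th percentile over probes detected on all arrays, removal of the intensity trend, normexp correction (limma 3.58.1, R 4.3.3; offset 50), stricter and no filters on dim probes, and the median over a gene's probes. Python 3.11.15 and pandas 2.3.3 were used for the rest. Some results on withheld genes are not reported here.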

Additional observations from a re-analysis of the deposited data

Results flagged for a closer look

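Some named genes lay past the rule in 1 direction with TNF and past it in the other direction in another genotype pair. Each pair has 1 array a side, so the difference between pairs was not tested. Values are log2 KO minus WT.

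Against macrophages without TNF, Hba-a1, a haemoglobin chain, was at -1.33 with TNF and 1.40 without, and Il1f9 at -1.34 and 1.61. In splenic neutrophils these genes were at 1.29 and 1.17, again opposite to the value with TNF.

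Against neutrophils, genes higher with TNF and lower there were Apoe (1.03 and -1.10), Chac1 (1.85 and -1.91), the eosinophil ribonuclease genes Ear1 (2.04 and -1.36) and Ear2 (1.27 and -1.38), Fcgr1 (2.14 and -1.24) and Gstt1 (1.74 and -1.81). Genes lower with TNF and higher there were Ccdc80 (-1.33 and 1.65), Csf1 (-1.04 and 1.23), Cxcl12 (-1.86 and 1.27), Flrt3 (-2.39 and 1.38), St3gal5 (-1.46 and 1.84) and Tarm1 (-1.15 and 1.81). With spike-in scaling the increases of Apoe (0.25), Ear2 (0.49) and Gstt1 (0.96) did not reach 2-fold.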

How the results depend on the processing

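The counts of 1655 higher and 638 lower genes changed with the processing. They were 1098 and 1127 with median scaling, 468 and 4954 with spike-in scaling, 585 and 234 after normexp correction, and 3128 and 1264 when dim probes were kept. They were 474 and 580 when genes brighter by 2-fold or more on the WT neutrophil array were left out, a choice made after the data had been seen. That array also carried B-cell genes, so the genes left out were not only those of neutrophils. Higher genes made up 72.2% of calls as scaled, 60.9% with quantile normalization (1150 and 739), 49.3% with median scaling and 8.63% with spike-in scaling. Median and spike-in scaling each shift every difference by the same amount. The 1098 and 468 genes still higher with them therefore had to be among the 1655. The spike-ins differed by 0.42 (SD 0.18 over 8 probes) before scaling. No named gene past the rule changed sign where measured. Of 136 such genes, 73 stayed past it under every setting that measured them. Shifts of -0.23 and -0.78 are smaller than the rule's limit, so median and spike-in scaling could not change a sign. Genes well above background on 1 array only give bounds, and the arrays' number limits every value. No paired analysis was possible because each group had 1 array.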

Other observations

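A gene was represented by 1 probe, and some other probes of the same genes gave another picture. These probes were chosen after their values were seen. Of the probes of Xaf1, one on chromosome 11 (bases 72127175 to 72127234, mm9) was dim on all WT arrays and bright on all KO arrays. Its relative signals were 0.0663 in WT and 11.5 in KO macrophages without TNF, then 0.0358 and 15.4 with TNF. In neutrophils they were 0.0749 and 6.95. The brighter probe of the same gene, at bases 72122169 to 72122228, gave 4.14 and 2.66 with TNF.

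Cd44, a hyaluronan receptor, had its brightest probes opposed. One, at bases 102651398 to 102651457 of chromosome 2, was lower in KO on all 3 pairs, with relative signals of 22.3 and 6.63 with TNF (-1.75). Another, at bases 102654278 to 102654337, was at 10.8 and 14.6 (0.42). A probe of Cd68 at bases 69478979 to 69479038 of chromosome 11 was lower in KO in each pair, at 41.7 and 19.7 without TNF, 43.4 and 19.1 with it, and 2.82 and 0.713 in neutrophils, while the probe at bases 69477775 to 69477834 gave 0.11 with TNF. Of the 2 probes of Mxd1, one gave 2.01 and the other 0.04 with TNF.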
